A study of Mus musculus with 8 samples.

Results

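In all, 10 genes of the hyaluronan and versican matrix were examined in the ventricles of mouse embryos in which Nrg1, the gene for neuregulin 1, was deleted with Tie2-Cre. They were chosen by symbol from a table of 53465 genes, 14451 of which were abundant enough to test, and all 10 were tested. Has2, Ugdh, Vcan and Hapln1 are the 4 genes for making and assembling the matrix, Adamts1, Adamts4, Adamts5, Adamts9 and Hyal2 are the 5 genes for breaking it down, and Cd44 encodes a hyaluronan receptor.

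Poly-A RNA was sequenced from heart ventricles at E9.5 in 4 samples of WT and 4 of Nrg-1flox;Tie2-Cre, the latter called KO as in the sample names. Tie2 drives Cre in endothelial cells, among them the endocardium that lines the ventricle, and is also known to be active in the blood lineage, so the driver is not specific to the endocardium. The labels do not say whether a sample was 1 embryo or a pool, or whether the WT embryos carried Cre or a floxed allele, so p-values here measure only the spread between these samples. Because whole ventricles were measured, fewer cells of a type and less RNA per cell cannot be told apart.

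Between the endocardium and the myocardium of the early heart lies the cardiac jelly, a matrix rich in hyaluronan and versican, around which the myocardium grows out as trabeculae. Hyaluronan is a long sugar chain made at the cell surface by hyaluronan synthases, of which Has2 is the main one in the embryonic heart, and embryos without it lack cardiac jelly. Versican is a large proteoglycan that binds hyaluronan, a bond that link protein holds in place, and proteases of the ADAMTS family cut versican as the jelly is cleared.

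Nrg1 itself was lower in every KO sample. Its counts were 61, 59, 71 and 72 in KO replicates 1 to 4 and 156, 131, 121 and 173 in WT replicates 1 to 4. In CPM (counts scaled to library size, with TMM factors) the means were 5.12 ± 0.68 and 10.7 ± 1.26 (SD, n = 4), and KO was at 47.7% of WT. The log2 fold change was -1.07 (SE 0.14, edgeR quasi-likelihood test, adjusted p = 0.00268).

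Total counts per sample ran from 12430368 to 14223860 in KO and from 11852372 to 14360323 in WT. The RNA level of markers of some cell types differed along with genotype. Of 10 red blood cell markers, 10 were higher in KO, with a summed CPM of 19822 to 68682 against 6689 to 8089 in WT, and KO replicate 1 was the highest. KO replicate 1 stood apart from the other KO samples also in its stress genes, which summed to 2024 CPM against 294 to 419 in the other KO samples and 201 to 230.1 in WT. All cardiomyocyte and endocardial markers listed were abundant enough to test, and none was at 0 in any sample. Of 12 cardiomyocyte markers none was called by edgeR or limma-voom (2 at an unadjusted p under 0.05) and DESeq2 called Myh6 and Ttn lower, with sums of 36112 to 40226 and 39001 to 40901. Endocardial and endothelial markers summed to 1091 to 1170 in KO and 1214 to 1302 in WT, where edgeR and limma-voom called 1 of 12 lower, Tek, DESeq2 called Tek and Kdr, and 5 of 12 were lower at an unadjusted p under 0.05 (of all genes tested, 11.9% were, and 3.5% were called lower). Cushion mesenchyme markers summed to 350.0 to 424 and 489 to 496 in KO and WT. There edgeR called 1 of 8 lower, Tbx20 (3 at an unadjusted p under 0.05), and DESeq2 and limma-voom called Tbx20 and Msx1. Tbx20 made up most of the cushion sum (mean 378 of 492 CPM in WT and 304 of 401 in KO). Sox9, Twist1, Snai1, Snai2, Prrx1 and Postn overlapped between genotypes and were called by none of these tools. Of 7 outflow and second heart field markers tested, 5 were lower by each of the 3 tools (sums of 229 to 266 against 337 to 363). These were Fgf10, Hand1, Sema3c, Rspo3 and Mef2c. Isl1 (log2 fold change -0.41, edgeR adjusted p = 0.491) and Fgf8 (0.06, adjusted p = 0.923) overlapped between genotypes and were not called. Mef2c and Hand1 had the largest WT means of the list, 149 and 90.7 CPM of a summed 346.

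Of the 10 genes, 3 were lower in KO with an adjusted p under 0.05, and all of these belonged to the synthesis group: Has2, Vcan and Hapln1. None was called higher in KO by edgeR, DESeq2 or limma-voom, and none was higher at an unadjusted p under 0.05. Among all genes tested, 8.62% were called in either direction, 3.5% were lower in KO and 5.11% were higher, and at an unadjusted p under 0.05 the shares were 11.9% lower and 13.1% higher. In 4 of the 10 genes, Has2, Vcan, Hapln1 and Cd44, every KO sample lay below every WT sample, a separation seen in that direction in 9.45% of all genes tested. None of the 5 breakdown genes was called by any of these tools, and none had an unadjusted p under 0.05. The median log2 fold change was -0.55 over the 4 synthesis genes and -0.07 over the 5 breakdown genes, against -0.0014 over all genes tested.

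**Figure D1:**
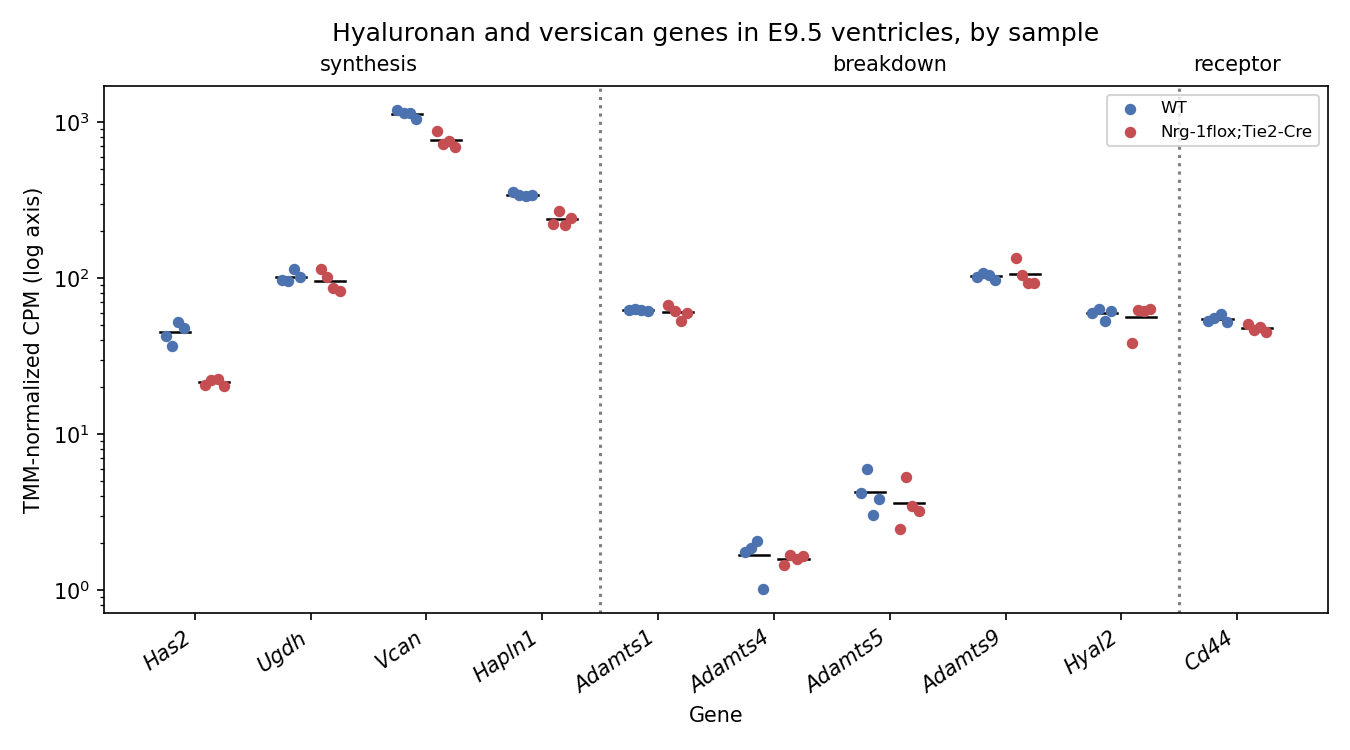
TMM-scaled CPM of each of the 10 genes in the 4 WT and 4 KO (Nrg-1flox;Tie2-Cre) samples, 1 point per sample. Points of the genotypes are apart for Has2, Vcan, Hapln1 and Cd44 and overlap for the other 6 genes.

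Has2 encodes the enzyme that polymerises hyaluronan and extrudes it from the cell, and it fell furthest of the 10 genes. Its CPM was 20.6, 22.1, 22.4 and 20.4 in KO replicates 1 to 4, and 42.3, 36.6, 52.2 and 48.0 in the WT replicates. The highest KO sample lay well below the lowest WT sample, and the spread was wider in WT (44.8 ± 6.78) than in KO (21.4 ± 1.02). KO was at 47.8% of WT, a log2 fold change of -1.06 (SE 0.11, 95% CI -1.30 to -0.83, edgeR adjusted p = 0.00152). Has2 ranked at position 15 of 14451 by p-value and at position 35 among the 506 genes lower in KO by size of the change. Behind these values stood between 243 and 312 reads per KO sample and between 511 and 710 per WT sample. Has2 lies on the minus strand of chromosome 15 (GRCm38, chr15:56665627-56694539) and shares 182 exonic bases with the antisense gene Has2os. The library kit did not mark strand and the strand setting is unknown, so reads of the shared bases cannot be assigned with certainty, but Has2os held only 1 to 4 counts in KO and 5 to 16 in WT.

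Ugdh encodes the dehydrogenase that makes UDP-glucuronate, a building block of hyaluronan and of chondroitin sulfate. Its CPM was 114, 102, 85.8 and 82.9 in KO and 96.7, 96.3, 114 and 101 in WT. The genotypes overlapped throughout, with KO replicate 1 the highest of all samples and KO replicates 3 and 4 the lowest. The log2 fold change was -0.08 (95% CI -0.32 to 0.16, edgeR adjusted p = 0.681), so a fall of the size of that in Has2 lies outside the interval. Ugdh maps to chr5:65413221-65435949 on the minus strand.

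Vcan encodes versican, the core protein to which the chondroitin sulfate chains of the jelly are attached. Its CPM was 875, 723, 756 and 691 in KO and 1188, 1144, 1146 and 1049 in WT. All KO samples were below all WT samples, and KO replicate 1 was the KO sample nearest to WT. The means were 761 ± 80.1 and 1132 ± 58.7, so that KO was at 67.3% of WT (log2 fold change -0.57, SE 0.08, 95% CI -0.74 to -0.40, edgeR adjusted p = 0.00279). In absolute terms Vcan lost most among these genes, as it was also the most abundant, with 8388 to 10513 reads per KO sample and 13947 to 15963 per WT sample.

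The classical ADAMTS cut in versican lies between a glutamate and an alanine in a chondroitin sulfate attachment domain that is spliced in or out. Of 5 Vcan transcripts with a complete coding sequence in GENCODE M21, 2 hold this site and 3 do not. In Vcan-203, which codes for 3354 residues, the cut falls between residues 1401 and 1402 in exon 8 of 15, and in Vcan-206, with 2394 residues, between 441 and 442 in exon 7 of 14. Both read the site from the same bases, given here as 90 coding bases from the minus strand of chr13:89693185-89693274 (GRCm38), where capitals mark the codons for aspartate, proline, glutamate, alanine, alanine and glutamate, and the cut follows the last of them, before the next alanine.
Vcan cleavage site: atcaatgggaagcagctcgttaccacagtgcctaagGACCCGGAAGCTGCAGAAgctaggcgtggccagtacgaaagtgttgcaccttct
The counts are per gene, so the fall of Vcan cannot be divided between the forms with and without the site.

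Hapln1 encodes the link protein that clamps versican to hyaluronan. Its CPM was 220.4, 269, 219 and 241 in KO and 353, 341, 335 and 339 in WT. The WT samples lay within a narrow band (342 ± 7.82) and the KO samples spread more widely (238 ± 23.5), without overlap. KO was at 69.5% of WT (log2 fold change -0.53, SE 0.07, 95% CI -0.68 to -0.37, edgeR adjusted p = 0.00274). The intervals of Hapln1 and Vcan covered much the same range, whereas that of Has2 lay below both.

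In KO the sums of endocardial, cushion and outflow markers were lower, the cushion sum being mostly Tbx20, and that of red cell markers was higher. These sums moved along with the fall of Has2, Vcan and Hapln1, and their part in it was not tested. Scaled to the summed endocardial markers, a setting chosen after seeing the data, the values were -0.92 for Has2, -0.42 for Vcan and -0.38 for Hapln1, each still called by edgeR. On that scale Cd44 was at -0.05, and the median of all genes shifted to 0.15. Without KO replicate 1 the values were -1.04 for Has2, -0.64 for Vcan and -0.49 for Hapln1, each called.

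**Figure D2:**
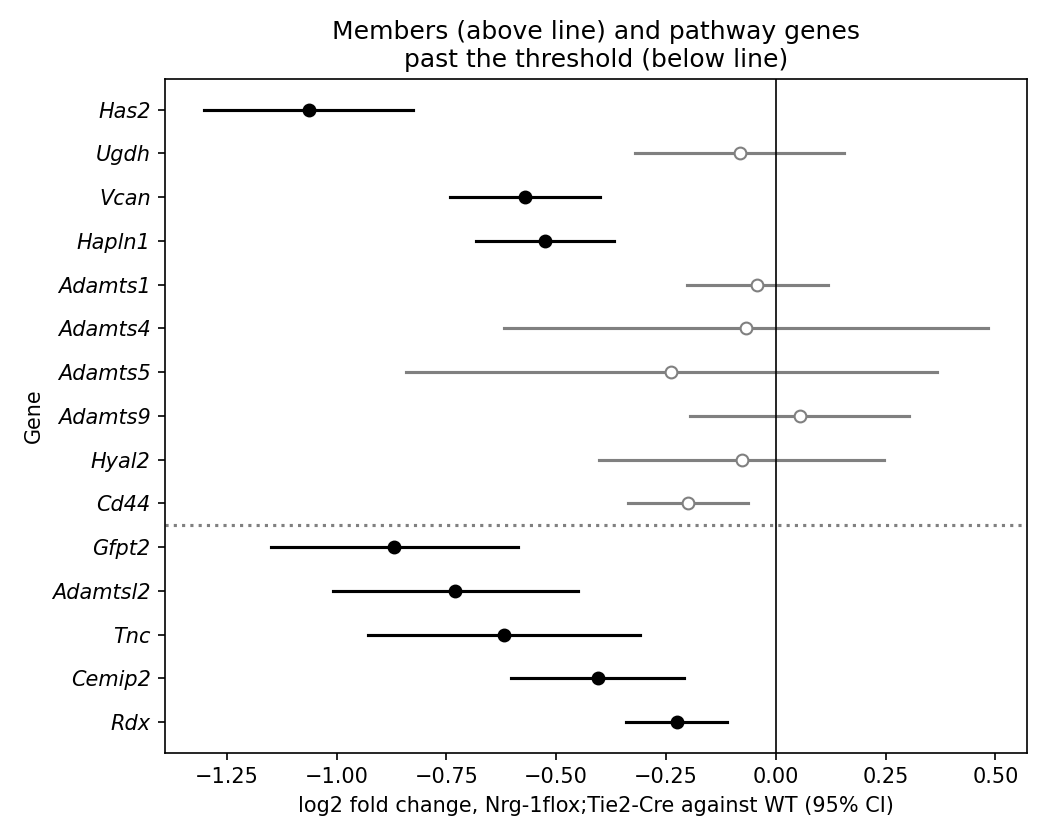
Log2 fold change (KO minus WT) of the 10 genes (above the line) with 95% confidence intervals from the edgeR fit of 4 KO and 4 WT samples. Below the line are the 5 pathway genes called by edgeR, Gfpt2, Adamtsl2, Tnc, Cemip2 and Rdx. Of the 10 genes, the intervals of Has2 (-1.30 to -0.83), Vcan, Hapln1 and Cd44 lie below 0 before adjustment, and those of Ugdh and the 5 breakdown genes cross it.

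Hapln1 and Vcan are neighbours. On chromosome 13 of GRCm38, Hapln1 (chr13:89539796-89611652) is on the plus strand and Vcan (chr13:89655312-89742509) on the minus strand, so they are transcribed toward each other, with 43659 bases between their ends. Within 1 Mb of the pair, 4 other genes were tested. Their log2 fold changes lay between -0.18 (Tmem167, edgeR adjusted p = 0.169) and 0.07 (Gm4117), and none was called. Tmem167 had an unadjusted p of 0.0367. Around Has2, Sntb1 was the 1 other gene tested within 1 Mb, with a log2 fold change of 0.07 (adjusted p = 0.873).

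**Figure D3:**
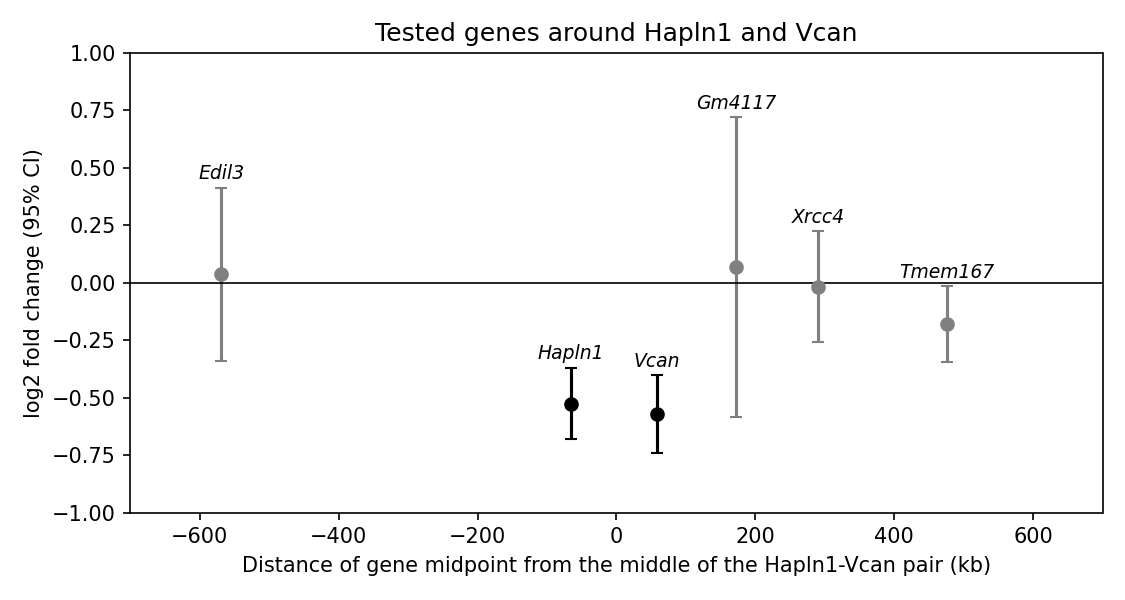
Log2 fold change (KO minus WT) with 95% confidence intervals for genes tested within 1 Mb of Hapln1 and Vcan, plotted by distance in kb from the middle of the pair. Hapln1 and Vcan lie below 0, and the other genes lie between -0.18 and 0.07.

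None of the proteases passed the test. Adamts1, a versican-cutting protease of the trabeculating heart, had a CPM of 67.6, 61.8, 53.4 and 59.7 in KO and 62.5, 63.5, 62.0 and 61.5 in WT. The WT values fell inside the KO range, and the log2 fold change was -0.04 (95% CI -0.20 to 0.12, edgeR adjusted p = 0.757). Adamts9, a relative that also cuts versican, had a CPM of 134, 105, 93.4 and 93.1 in KO and 102, 107, 105 and 96.4 in WT. KO replicate 1 was the high sample, and the other KO values lay within or below the WT range (log2 fold change 0.05, 95% CI -0.20 to 0.30, edgeR adjusted p = 0.81). Without KO replicate 1 the Adamts9 value became -0.08, still without a call. Adamts1 maps to chr16:85793827-85803113 and Adamts9 to chr6:92772699-92943492, both on the minus strand, and Adamts9 shares exonic bases with genes on the opposite strand that held at most 25 counts in any sample.

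The promoters of Vcan, which fell, and of Adamts1, which did not pass the test, are shown as the 250 bases before the RefSeq start (GRCm38.p6, both read 5′ to 3′ on the minus strand), and 7 of the 10 genes had an entry. Vcan spans chr13:89742513-89742762 and Adamts1 spans chr16:85803114-85803363. Both strands were searched for TATAAA (bound by the TBP protein, found in 12.9% of 27025 promoters), TGGGAA (core of the Notch partner RBPJ, 21.6%), AGATAA (bound by the factors of the GATA family, 10.2%), TGACTCA (AP-1, 4.47%) and CACGTG (E-box, 5.93%), and capitals mark the matches.
Vcan promoter: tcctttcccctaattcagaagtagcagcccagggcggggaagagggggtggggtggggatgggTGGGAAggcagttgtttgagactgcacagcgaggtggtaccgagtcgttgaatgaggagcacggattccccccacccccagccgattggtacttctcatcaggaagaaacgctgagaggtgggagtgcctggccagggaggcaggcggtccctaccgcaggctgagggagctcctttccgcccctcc
Adamts1 promoter: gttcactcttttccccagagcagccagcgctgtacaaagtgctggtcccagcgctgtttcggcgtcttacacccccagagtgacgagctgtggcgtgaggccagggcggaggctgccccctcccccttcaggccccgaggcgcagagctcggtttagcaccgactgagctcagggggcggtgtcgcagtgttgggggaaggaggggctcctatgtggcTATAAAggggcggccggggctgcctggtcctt
Vcan held TGGGAA beginning 187 bases before the start, and Adamts1 held TATAAA beginning 32 bases before the start. Hapln1, which also fell, had no match to any of these motifs, and neither had Ugdh, Adamts9 and Hyal2, which did not pass the test. The windows of Hapln1, Ugdh and Hyal2 each held 1 annotated exon, and those of Hapln1 and Hyal2 lay inside the annotated genes. Cd44, which did not pass the test, held TGGGAA at 207 and, on the other strand, at 179 bases before the start and AGATAA at 233. These letters describe the sequence and were not tested as binding sites.

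Adamts4 and Adamts5, the aggrecanases best known from cartilage, had the fewest reads of the 10 genes. Adamts4 had 17, 23, 22 and 20 reads in KO and 23, 26, 25 and 15 in WT, and Adamts5 had 29, 73, 48 and 39 in KO and 55, 83, 37 and 57 in WT. Both overlapped between genotypes, with wide intervals of -0.62 to 0.48 for Adamts4 (log2 fold change -0.07) and -0.84 to 0.37 for Adamts5 (log2 fold change -0.24). A change of the size of that in Vcan lay inside both intervals. The edgeR adjusted p-values were 0.899 for Adamts4 (chr1:171250421-171260637, plus strand) and 0.639 for Adamts5 (chr16:85856173-85901828, minus strand, on the same stretch of chromosome 16 as Adamts1).

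Hyal2 (chr9:107567945-107572779, plus strand) encodes a hyaluronidase anchored at the cell surface. Its CPM was 38.1, 62.2, 61.8 and 63.0 in KO and 59.7, 63.3, 53.2 and 61.5 in WT. KO replicate 1 stood apart from the other samples, which all lay between 53.2 and 63.3. The log2 fold change was -0.08 (95% CI -0.40 to 0.25, edgeR adjusted p = 0.785), and without KO replicate 1 it was 0.07.

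Cd44 (chr2:102811141-102901665, minus strand), the receptor that ties cells to hyaluronan, was somewhat lower in KO but did not pass the test. Its CPM was 50.8, 46.1, 48.8 and 45.3 in KO and 53.3, 55.6, 58.3 and 52.3 in WT, without overlap. The means of 47.8 ± 2.50 and 54.9 ± 2.68 gave a log2 fold change of -0.20 (SE 0.06, 95% CI -0.34 to -0.06), with an unadjusted p of 0.00842 and an edgeR adjusted p of 0.0732. Without KO replicate 1 the value was -0.23 and was called (adjusted p = 0.0182), and with upper-quartile scaling it was -0.22 and was also called (adjusted p = 0.0472).

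Levels of the genes were compared per kb of exon, since long genes collect more reads. On that scale the WT means were 78.2 CPM per kb for Vcan and 57.9 for Hapln1, and no sample of one overlapped the other. Hyal2 (18.0), Ugdh (15.1), Adamts1 (11.8) and Has2 (10.6) followed, of which Hyal2 overlapped Ugdh and Adamts1 overlapped Has2 across samples. Cd44 (8.10) and Adamts9 (6.81) were lower, and Adamts5 (0.395) and Adamts4 (0.348) lay far beneath. The WT level of Vcan stood at percentile 95.9 of all genes tested and that of Adamts4 at percentile 6.57. In KO, Vcan (52.6) and Hapln1 (40.2) kept the highest levels, while Has2 (5.05) lay below Adamts9 (7.08) and Cd44 (7.05) in every sample.

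Synthesis and breakdown were set against each other in each sample, as the mean log2 CPM of the 4 synthesis genes minus that of the 5 breakdown genes. This balance was 3.10, 2.79, 2.89 and 2.82 in KO and 3.35, 3.12, 3.53 and 3.53 in WT. The highest KO sample (3.10) and the lowest WT sample (3.12) nearly met, and the means of 2.90 ± 0.14 and 3.38 ± 0.19 differed by -0.48. The synthesis arm was 7.12 ± 0.08 in KO and 7.68 ± 0.08 in WT (difference -0.56, no overlap). The breakdown arm was 4.22 ± 0.12 in KO and 4.29 ± 0.14 in WT (difference -0.08), and the genotypes overlapped. Taking the median of each arm in place of the mean reduced the difference to -0.13. No p-value is given, since the genes were grouped with earlier results known.

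**Figure D4:**
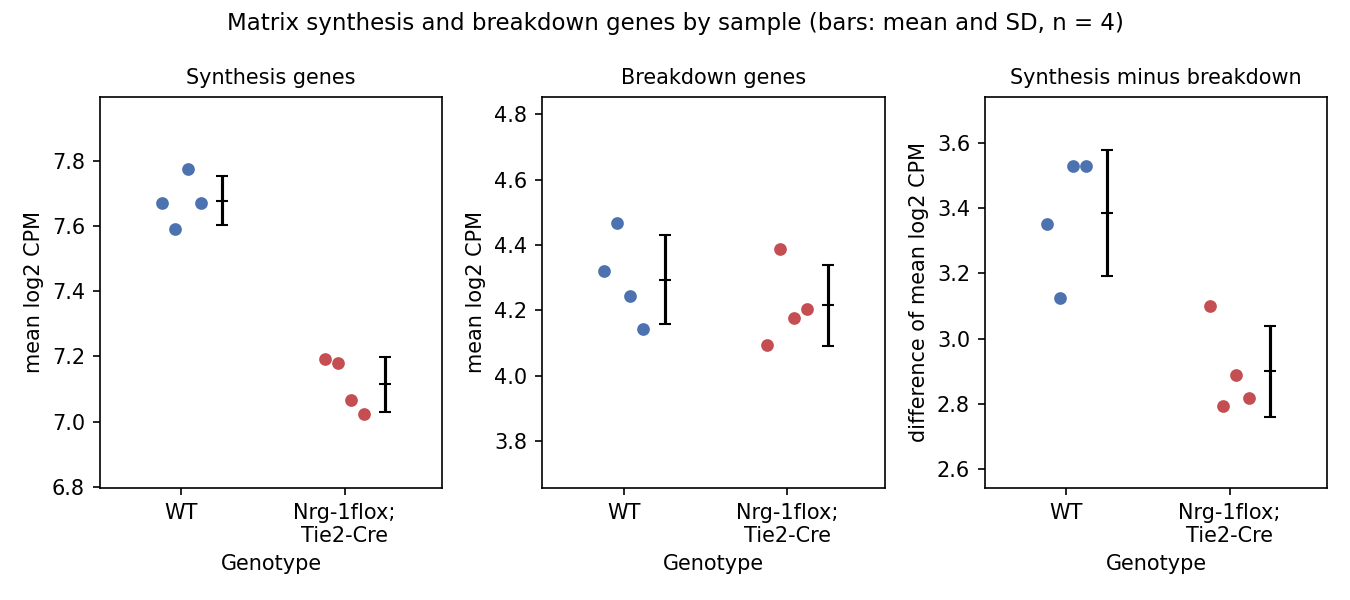
Mean log2 CPM of the 4 synthesis genes, of the 5 breakdown genes, and their difference, in each WT and KO sample, with bars for mean and SD (n = 4) and the same span on each axis. The synthesis arm is apart by 0.56, the breakdown arm overlaps, and the difference is lower by 0.48 in KO.

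The same was done for single pairs of genes. Has2 relative to each breakdown gene was lower in all KO samples than in all WT samples for 4 of 5 genes, Adamts5 being the exception. Hapln1 did so for 3 of 5 and Vcan for 2 of 5, while Ugdh did so for 0 of 5. The differences (KO minus WT, log2) ran from -1.09 to -0.80 for Has2, from -0.57 to -0.29 for Hapln1 and from -0.61 to -0.33 for Vcan. The 5 ratios of a synthesis gene all contain that gene's own change. These counts therefore restate the single-gene results and are not separate evidence, and no such ratios were computed for other genes.

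In the wider pathway, 8 lists held 103 further genes, of which 79 were tested. Of these, 5 were lower in KO (6.33%, against 3.5% of all genes) and none was higher by edgeR, while at an unadjusted p under 0.05 13 of 79 were lower and 6 higher, against 11.9% and 13.1% of all genes. DESeq2 called 8 lower and 1 higher, and limma-voom 5 lower and 1 higher, the higher gene being Adamtsl5 in both. Adamtsl5, another ADAMTS-like gene, showed the largest change of the 79 genes by edgeR, in the opposite direction, but did not pass the test (log2 fold change 1.32, SE 0.37, adjusted p = 0.0551). It had 29, 20, 24 and 20 reads in KO and 7, 19, 6 and 7 in WT, with every KO sample above every WT sample in CPM.

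Gfpt2, of the step that leads sugar into UDP-N-acetylglucosamine, the other building block of hyaluronan, was the largest fall. Its CPM was 17.1, 15.1, 22.2 and 19.2 in KO and 29.5, 37.1, 36.5 and 31.3 in WT, without overlap, and the log2 fold change was -0.87 (SE 0.13, edgeR adjusted p = 0.0036). Of the other synthesis genes, Ugp2, which makes UDP-glucose upstream of Ugdh, was the most abundant per kb and had a value of -0.22 (adjusted p = 0.0665) and was called lower by DESeq2. Of the 8 other synthesis genes tested, 1 was called by edgeR and by limma-voom, 2 by DESeq2 or with upper-quartile scaling, and 4 by edgeR without KO replicate 1. Adamtsl2, which resembles the ADAMTS family but has no protease domain, was at 9.58, 7.96, 10.6 and 9.07 in KO and 16.3, 12.8, 16.1 and 16.5 in WT (log2 fold change -0.73, SE 0.12, adjusted p = 0.0074), and it was the 1 called by edgeR of 16 other family members tested, with 2 called by DESeq2, by limma-voom or without WT replicate 2. Adamts10, the most abundant of these per kb, had a value of 0.21 (adjusted p = 0.168).

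Tnc, the matrix protein tenascin-C that binds versican, was at 88.3, 86.3, 133 and 111 in KO and 141, 156, 181 and 166 in WT (log2 fold change -0.62, SE 0.14, edgeR adjusted p = 0.0251). Of 10 versican partners tested, Tnc was the 1 called by edgeR, and 2 were called by DESeq2 or without KO replicate 1. Fn1, the fibronectin gene and the most abundant of them per kb, had a value of -0.01 (adjusted p = 0.939). Cemip2, a membrane protein described as a hyaluronidase, was at 162, 221, 193 and 208 in KO and 255, 275, 255 and 255 in WT (-0.41, SE 0.09, adjusted p = 0.0218). It was the 1 called by edgeR, DESeq2 and limma-voom of 8 other hyaluronan turnover and receptor genes tested, with 2 lower and 2 higher at an unadjusted p under 0.05 and 2 called under the replicate block. The higher ones were Cemip, for a secreted protein of hyaluronan breakdown (1.02, adjusted p = 0.137), and Stab2, for a scavenger receptor of hyaluronan (1.02, adjusted p = 0.154), and both overlapped between genotypes. Rdx, which links Cd44 to the actin cytoskeleton, was at 385, 353, 342 and 344 in KO and 413, 425, 416 and 412 in WT (-0.23, SE 0.05, adjusted p = 0.0269). Of 4 such linker genes tested, Rdx was the 1 called by edgeR, DESeq2 and limma-voom. The others were Ezr (0.17), Msn (-0.01) and Nf2 (-0.02).

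With 1 sample left out, Tnc, Cemip2 and Rdx lost their calls in some fits at folds close to the full values. Tnc did so without KO replicate 4 or WT replicates 2, 3 or 4 (log2 fold change -0.65 to -0.56, edgeR adjusted p = 0.0562 to 0.0799). Cemip2 did so without KO replicate 3 or any WT replicate (-0.42 to -0.38, adjusted p = 0.0575 to 0.0681), and Rdx without any sample but KO replicate 1 (-0.23 to -0.21, adjusted p = 0.0503 to 0.0819). Scaled to the summed endocardial markers, the values were -0.47 for Tnc, -0.26 for Cemip2 and -0.08 for Rdx, none of them called (adjusted p = 0.059, 0.0766 and 0.402). None of 20 chondroitin sulfate genes tested was called by edgeR, DESeq2 or limma-voom, with 2 at an unadjusted p under 0.05, and Chsy1, the most abundant per kb, had a value of -0.16 (adjusted p = 0.181). None of 8 inhibitors and cofactors was called by these tools (2 at an unadjusted p under 0.05), though 1 was by edgeR without KO replicate 1, of which Fbln1 was the most abundant (-0.03, adjusted p = 0.907). None of 5 other hyaluronan-binding matrix genes was called by edgeR or limma-voom (1 at an unadjusted p under 0.05), and DESeq2 called Hapln3, another link protein gene, lower (edgeR -0.66, adjusted p = 0.0626).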

How the data were processed

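RNA-seq of E9.5 ventricles (4 WT, 4 KO) was deposited as per-gene expected counts that the authors estimated with RSEM 1.3.1 on GRCm38 after cutadapt, per the submitters' processing notes. The annotation number in the table's name is 91. The aligner and the strand setting are not given in the sources used here. Libraries were made from 200 ng total RNA with a poly-A kit that does not mark strand and read for 60 bases on a HiSeq 2500.

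The deposited expected counts were rounded to whole numbers. Columns of per-sample values left unused numbered 0. Genes kept by filterByExpr (14451) were TMM-scaled and tested with the edgeR quasi-likelihood test, KO against WT, and p-values were adjusted by Benjamini-Hochberg across the tested genes (R 4.3.3, edgeR 4.0.16, threshold 0.05). SE is the log2 fold change over the square root of F, and intervals are 95%. CPM per kb used exon lengths of GENCODE M21. Log2 CPM used a prior count of 2.

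The members and lists were chosen with earlier results of these data known. Named were the 10 genes, Nrg1, pathway genes called, and the most abundant per kb in each list. Genes outside this rule (Adamtsl5, Cemip, Stab2, Ezr, Msn, Nf2, the neighbours and the markers) were named after their values were seen. Markers of other cell types were also measured (red cell, cardiomyocyte, endocardial, cushion and outflow in the report, epicardial, leukocyte, megakaryocyte, atrial, neural and stress in the closing section). Other runs used DESeq2 1.42.0, voom of limma 3.58.1, other scalings and filters, a replicate block, GC and length offsets, and each sample left out. Samples of a group differed beyond counting noise (chi-square over degrees of freedom at least 3.59). The procedure was tested on simulated data. A result that needs an item withheld for evaluation is not reported here.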

Additional observations from a re-analysis of the deposited data

Results flagged for a closer look

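Among 34 groups of 4 samples examined for a sample far from the others, 3 held one, and chance gives about 1 in 20 groups, or 1.7. Hyal2 in KO replicate 1 lay low, with a gap to the next sample of 0.952 of the group's range. Cemip2 in WT replicate 2 lay high, at 0.989 of the range. Adamtsl2 in WT replicate 2 lay low, at 0.897 of the range.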

How the results depend on the processing

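Has2, Vcan, Hapln1 and Nrg1 stayed lower and called by every one of 19 alternatives, and no breakdown gene was called in any. Over the fits that left out 1 sample, log2 fold changes ran from -1.15 to -0.98 for Has2, -0.64 to -0.53 for Vcan, -0.58 to -0.49 for Hapln1, -0.17 to -0.02 for Ugdh, -0.10 to 0.01 for Adamts1, -0.25 to 0.04 for Adamts4, -0.48 to -0.03 for Adamts5, -0.08 to 0.11 for Adamts9, -0.14 to 0.07 for Hyal2 and -0.23 to -0.17 for Cd44, and the balance ran from -0.57 to -0.43. Signs turned without a call for Adamts1 without KO replicate 3 (0.0139), Adamts4 without WT replicate 3 (0.0425), and Adamts9 (-0.0769) and Hyal2 (0.0679) without KO replicate 1. Scaling to endocardial markers, chosen after seeing the data, turned Ugdh (0.0641), Adamts1 (0.104), Adamts4 (0.0843) and Hyal2 (0.0715). Cd44 passed with upper-quartile scaling (-0.22), and the balance by medians was -0.13. The causes were not tested.

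The 1245 genes called (739 higher, 506 lower) became 2439 (2272 and 167) scaled to endocardial markers, and 331 were lower scaled to cardiomyocyte markers. Leaving out 1 sample gave 509 to 2523 genes (335 to 1368 higher, 174 to 1155 lower), with 2523 without KO replicate 1, 509 without WT replicate 1, and 569 to 784 without KO replicates 3 or 4 or WT replicates 2, 3 or 4. With a replicate block 616 genes were called (398 higher, 218 lower), and with GC content and length offsets added 568 (325 and 243). The labels name no pairing, and same-numbered samples did not deviate together (correlations -0.0911 to 0.0187, own number best in 0 of 4). Under the block Has2 was at -1.05, Vcan at -0.58, Hapln1 at -0.53 and Cd44 at -0.20, and Rdx lost its call (-0.23, adjusted p = 0.0777). Adamts4 and Adamts5 had 15 to 83 reads per sample and the widest intervals of the 10 genes, and the shares of depth and of sample spread in them were not separated.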

Other observations

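Markers of other cell populations were measured beside the matrix genes. Epicardial markers were higher in KO for 2 of 7 tested, Wt1 (log2 fold change 0.57, edgeR adjusted p = 0.0126) and Tbx18 (0.50, adjusted p = 0.0315). Leukocyte markers were higher for 2 of 3 tested by edgeR and limma-voom and for 3 by DESeq2. Megakaryocyte markers were higher for 2 of 6 by edgeR and DESeq2 and for 0 by limma-voom (5 at an unadjusted p under 0.05 by edgeR), and their summed CPM was 216 in KO replicate 1, 63.3 to 73.4 in the other KO samples and 36.6 to 59.2 in WT. Of 6 atrial and atrioventricular canal markers, Tbx3 was lower (-0.72, adjusted p = 0.0334), and none of 3 neural markers was called by edgeR, DESeq2 or limma-voom or had an unadjusted p under 0.05. Stress genes were higher for 3 of 12 by edgeR, 5 by DESeq2 and 2 by limma-voom, with the metallothionein gene Mt1 at 894 CPM in KO replicate 1, against 71.2 to 133 in the other KO samples and 18.4 to 28.4 in WT. Hemoglobin transcripts made up 1.93% to 6.26% of counts in KO and 0.671% to 0.799% in WT.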
